A study of Mus musculus with 29 samples.

Results

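The extracellular side of Wnt signalling in the mouse retina was described here, from the Wnt ligands through their Frizzled receptors to the secreted proteins that hold the ligands back. Members were chosen by gene symbol alone: every probe set with a single symbol for a Wnt, a Frizzled (Fzd), Lrp5 or Lrp6, a secreted Frizzled-related protein (Sfrp, with Frzb), a Dickkopf (Dkk, with Dkkl1) or Wif1. This gave 42 of 18194 genes, namely 19 Wnt ligands, 10 Frizzleds, 2 co-receptors and 11 secreted proteins of the inhibitor families. Deposited RMA values (background-corrected, normalised log2 levels) covered 25 of the 42, and the other 17 were measured by MAS5 signals alone, a linear intensity for each probe set. The series compared retinas of 4 mouse groups, AKR/J, CAST/EiJ, rd7 and NOD.NON-H2-nb1, with C57BL6/J, each at P30.5 (a month after birth, a mature retina) and at E18.5 (an embryonic retina shortly before birth). The rd7 mice (RD7 in the labels) carry the retinal degeneration 7 mutation of Nr2e3, a nuclear receptor of photoreceptors, and the other 4 are inbred strains with no named mutation or treatment in the labels. Each of the 29 arrays held RNA pooled from 10 retinas, with 3 arrays in 9 of the 10 groups and 2 in AKR/J at E18.5. An array is therefore a pool and not an animal, and array numbers below only name the arrays of a group.

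Wnt ligands are lipid-modified secreted proteins that bind the cysteine-rich domain of a Frizzled. With Lrp5 or Lrp6 beside the Frizzled, binding keeps beta-catenin from being degraded, and beta-catenin then acts with TCF and LEF factors on target genes. Other ligand and receptor pairs work through planar polarity or calcium without it. Sfrp proteins and Frzb carry a Frizzled-like domain and bind ligands outside the cell, Wif1 also binds ligands, and Dkk1, Dkk2 and Dkk4 act on the co-receptors. In the eye the pathway is known for patterning the optic cup, for the ciliary margin and pigment epithelium, and, through Fzd4 and its ligand Norrin, for the growth of retinal vessels.

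The promoters of 3 members with age differences described below are shown: Sfrp2 and Fzd7, lower at P30.5, and Frzb, higher at P30.5. The Fzd7 difference was smaller than those of Fzd2 and Fzd3, which have no window in the RefSeq table. Each run holds the 250 bases before the RefSeq start of the gene (GRCm38.p6), read 5′ to 3′ on the gene's own strand. Capitals mark a TCF/LEF core, searched as ACAAAG or TCAAAG and as their reverse complements CTTTGT and CTTTGA, so on both strands.
Sfrp2: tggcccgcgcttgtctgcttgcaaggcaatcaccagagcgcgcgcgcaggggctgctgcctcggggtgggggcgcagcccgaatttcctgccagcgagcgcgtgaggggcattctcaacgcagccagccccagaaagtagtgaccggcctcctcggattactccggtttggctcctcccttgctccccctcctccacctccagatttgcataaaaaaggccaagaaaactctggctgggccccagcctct
Fzd7: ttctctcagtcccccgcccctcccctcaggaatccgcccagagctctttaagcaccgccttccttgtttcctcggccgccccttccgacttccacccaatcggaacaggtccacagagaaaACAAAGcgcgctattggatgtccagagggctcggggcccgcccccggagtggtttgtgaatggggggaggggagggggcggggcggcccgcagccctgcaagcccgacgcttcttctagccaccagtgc
Frzb: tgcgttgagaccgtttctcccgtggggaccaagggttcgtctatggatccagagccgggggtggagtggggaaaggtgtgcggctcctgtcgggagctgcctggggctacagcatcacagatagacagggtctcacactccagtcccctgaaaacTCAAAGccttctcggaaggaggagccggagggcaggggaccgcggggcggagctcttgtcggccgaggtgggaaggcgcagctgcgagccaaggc
The windows lie at chr3:83766071-83766320 (Sfrp2, plus strand), chr1:59481897-59482146 (Fzd7, plus strand) and chr2:80447397-80447646 (Frzb, minus strand). Fzd7 holds 1 core 129 bases before the start and Frzb 1 core 95 bases before it, whereas these letters are not in the Sfrp2 window. Of the 28 members with a window in the RefSeq table, 8 hold a core (Dkk1, Dkk2, Frzb, Fzd1, Fzd7, Wnt11, Wnt5b and Wnt8b), and 27.6% of all 32851 windows of that length do. The 3 windows are 63.6, 65.2 and 64.4% G and C for Sfrp2, Fzd7 and Frzb, against a median of 52.4% over all windows.

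The arrays had median RMA levels of 6.74 to 6.95, and replicate arrays correlated at 0.931 to 0.991 over 28 pairs. The arrays fall on 4 dates given in the sample titles, and arrays of different groups that shared a date deviated from their group means together (mean r = 0.26 over 120 pairs, against -0.12 over 258 pairs on other dates). Photoreceptor markers averaged 14.05 to 14.64 at P30.5 and 7.04 to 9.16 at E18.5 on the log2(MAS5 signal + 16) scale, and progenitor markers averaged 9.67 to 10.38 at P30.5 and 11.04 to 11.81 at E18.5. The retinal label of the embryonic arrays needs a limit. Markers of skeletal muscle and of mesenchyme around the eye averaged above 9 on 6 of the 14 E18.5 arrays: 11.53 and 11.74 on both AKR/J arrays, 11.03 on CAST/EiJ array 1, 11.04 and 11.45 on rd7 arrays 2 and 3, and 10.05 on NOD.NON-H2-nb1 array 1. The 3 C57BL6/J arrays at E18.5 had 7.01, 6.41 and 6.14, and the P30.5 arrays of all strains 6.01 to 7.40. Nr2e3 transcript was not analysed here.

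A set of 4 members differed between the ages with 1 sign in every strain, by far more than the spread between arrays. Sfrp2, Fzd2 and Fzd3 were lower in the mature retina, and Frzb was higher. Here and below a call means an adjusted p under 0.001 together with a difference of 2-fold or more (limma on all probe sets, Benjamini-Hochberg adjustment within each comparison). Fewer cells of a type and less RNA per cell cannot be told apart in pooled tissue, for these genes or any other.

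Sfrp2, a secreted antagonist of embryonic tissues that is made by retinal progenitors, had RMA levels of 3.99 to 4.94 (median 4.50) over the 15 P30.5 arrays and 8.34 to 10.05 (median 8.82) over the 14 E18.5 arrays. No P30.5 array came within 3 log2 units of any E18.5 array. By strain, the 3 P30.5 arrays had 4.16, 4.87 and 4.45 in AKR/J, 4.42, 4.69 and 4.50 in CAST/EiJ, 4.73, 4.40 and 4.50 in rd7, 3.99, 4.66 and 4.94 in NOD.NON-H2-nb1, and 4.74, 4.84 and 4.50 in C57BL6/J. The E18.5 arrays had 9.22 and 9.25 in AKR/J, 9.77, 8.89 and 10.05 in CAST/EiJ, 8.71, 8.73 and 8.81 in rd7, 8.84, 9.18 and 8.67 in NOD.NON-H2-nb1, and 8.41, 8.34 and 8.53 in C57BL6/J. P30.5 minus E18.5 was -4.74 ± 0.27 in AKR/J, -5.03 ± 0.24 in CAST/EiJ, -4.21 ± 0.24 in rd7, -4.36 ± 0.24 in NOD.NON-H2-nb1 and -3.73 ± 0.24 in C57BL6/J (log2 ± SE), a 13.3-fold to 32.6-fold lower level, with adjusted p between 2.3e-14 and 4.83e-12. Within arrays of a single date the difference ran from -5.54 (CAST/EiJ) to -3.67 (C57BL6/J).

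Fzd2, a receptor of developing tissues that responds to Wnt5a among others, had 5.23 to 6.46 (median 5.89) at P30.5 and 8.46 to 9.69 (median 8.97) at E18.5. Its groups did not overlap in any strain. The difference was -3.46 ± 0.31 in AKR/J, -3.15 ± 0.28 in CAST/EiJ, -3.17 ± 0.28 in rd7, -3.06 ± 0.28 in NOD.NON-H2-nb1 and -3.29 ± 0.28 in C57BL6/J (log2 ± SE), with adjusted p of 3.2e-09 or lower. The fall thus lay between 8.34-fold and 11.0-fold in every strain, and within single dates between -3.83 and -2.51 on the log2 scale, both in CAST/EiJ. Its other probe sets gave -3.31 and -3.79 in C57BL6/J and -3.53 and -1.91 in CAST/EiJ.

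Fzd3, a receptor that guides growing axons and acts in planar polarity, had 5.80 to 6.47 (median 6.17) at P30.5 and 7.95 to 9.09 (median 8.34) at E18.5, again without overlap. It was lower at P30.5 by 4.14-fold to 5.21-fold, with log2 differences of -2.05 ± 0.20 in AKR/J, -2.38 ± 0.18 in CAST/EiJ, -2.06 ± 0.18 in rd7, -2.11 ± 0.18 in NOD.NON-H2-nb1 and -2.21 ± 0.18 in C57BL6/J (SE, adjusted p of 1.43e-08 or lower). The size depended on the probe set: its 4 RMA probe sets ran from -2.21 to -0.23 in C57BL6/J and from -2.38 to -0.93 in CAST/EiJ.

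Frzb, an Sfrp-like binder of Wnts, moved the other way, with 7.69 to 9.06 (median 8.38) at P30.5 and 4.22 to 5.88 (median 4.86) at E18.5. The P30.5 arrays had 8.45, 8.95 and 8.71 in AKR/J, 8.26, 8.32 and 8.53 in CAST/EiJ, 8.38, 7.95 and 8.55 in rd7, 8.26, 8.75 and 9.06 in NOD.NON-H2-nb1, and 7.69, 8.24 and 8.30 in C57BL6/J. The E18.5 arrays had 5.44 and 5.88 in AKR/J, 5.30, 4.60 and 4.83 in CAST/EiJ, 5.13, 5.31 and 5.46 in rd7, 4.81, 4.67 and 4.86 in NOD.NON-H2-nb1, and 4.22, 4.31 and 4.85 in C57BL6/J. All mature arrays lay above all embryonic ones. The difference was 3.04 ± 0.25 in AKR/J, 3.46 ± 0.22 in CAST/EiJ, 2.99 ± 0.22 in rd7, 3.91 ± 0.22 in NOD.NON-H2-nb1 and 3.62 ± 0.22 in C57BL6/J (log2 ± SE), which is 7.95-fold to 15.0-fold, with adjusted p of 8.06e-10 or lower. Single dates gave 2.64 (rd7) to 4.20 (NOD.NON-H2-nb1), and a dimmer second probe set gave 0.81 in C57BL6/J and 0.96 in CAST/EiJ.

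**Figure D1:**
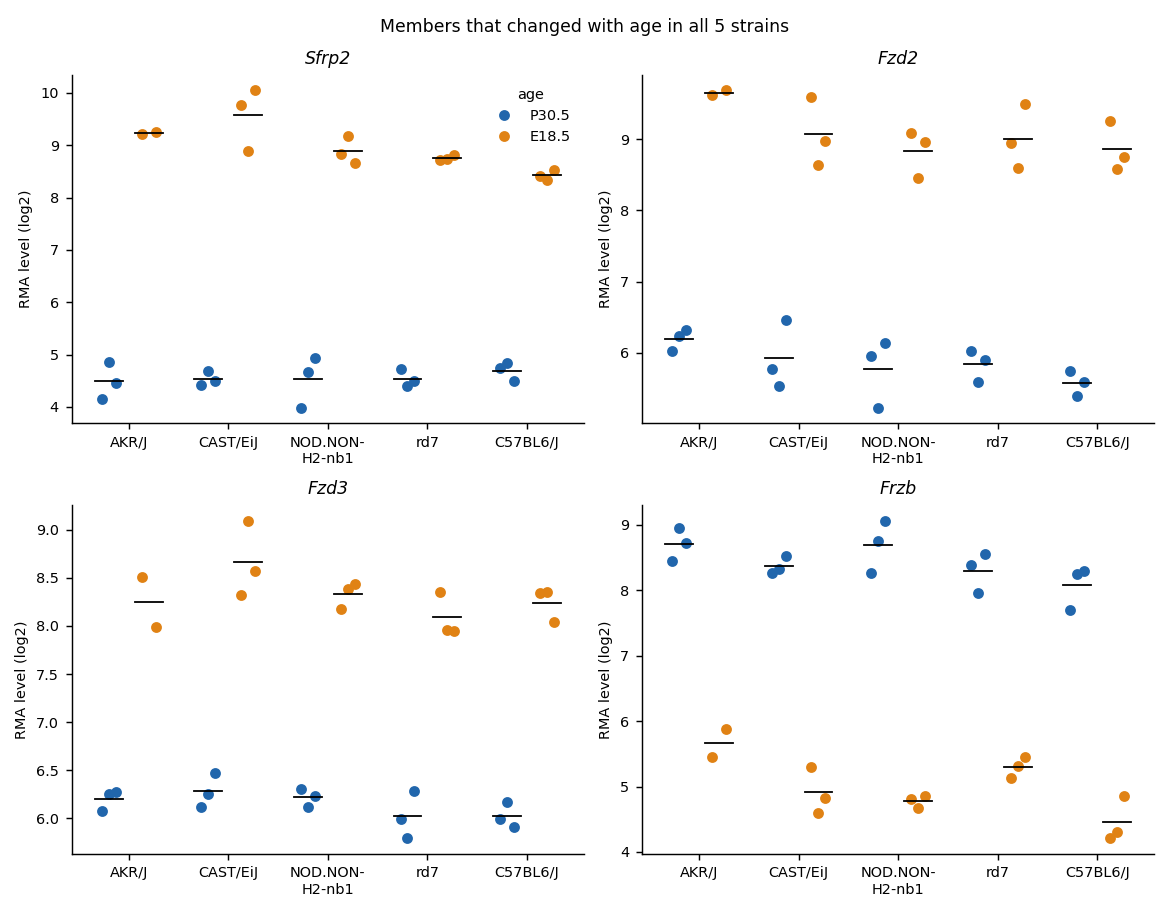
RMA level (log2) of Sfrp2, Fzd2, Fzd3 and Frzb on each array, by strain, with P30.5 (blue) left of E18.5 (orange) and a line at each group mean. In all 5 strains the 3 P30.5 arrays sit below the E18.5 arrays for Sfrp2, Fzd2 and Fzd3 and above them for Frzb.

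The counts of members called lower at P30.5 are given for each strain as a description, with no test between strains. Of the 25 members with RMA values, 9 were called lower and 1 higher in AKR/J (over all genes 10.3% were called lower and 10.2% higher). CAST/EiJ had 7 lower and 1 higher (10.03% and 8.47% of all genes). The rd7 retinas had 6 lower and 1 higher (11.7% and 8.52%), and NOD.NON-H2-nb1 had 5 lower and 1 higher (10.2% and 10.2%). C57BL6/J had only 3 lower and 2 higher (10.96% and 10.01%). The median age difference over the 25 members was -0.67 in AKR/J, -0.83 in CAST/EiJ, -0.67 in rd7, -0.18 in NOD.NON-H2-nb1 and 0.05 in C57BL6/J (log2), beside medians over all genes of -0.01, -0.04, -0.10, -0.02 and -0.02 in the same order. Sfrp2, Fzd2 and Fzd3 made up the whole C57BL6/J list of falls. Members called lower in other strains but not in C57BL6/J were Wnt4, Wnt5a, Wnt9a, Fzd6, Fzd7, Sfrp1 and Wif1. The AKR/J total of 10 calls rests on each of its arrays: it was 4 to 6 when any 1 of them was left out. It was 4 with the muscle and mesenchyme level as a covariate and 5 from MAS5 signals. C57BL6/J had 5 calls with that covariate and 4 from MAS5 signals. The covariate was centred within each age, so it did not bring the ages to the same tissue level. Markers of the surrounding tissue also fell with age. Of the 9 muscle and 17 measured mesenchyme markers, 9 and 17 were lower at P30.5 in AKR/J, 5 and 8 in CAST/EiJ, 9 and 10 in rd7, 4 and 2 in NOD.NON-H2-nb1, and 0 and 1 in C57BL6/J (adjusted p under 0.05), and their part in the counts was not tested beyond the covariate.

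Fzd7, a Frizzled of many progenitor cells, stood between both sets. It had 5.86 to 7.37 (median 6.76) at P30.5 and 7.57 to 9.16 (median 8.20) at E18.5, and the ages did not overlap. It was called lower in AKR/J (-1.85 ± 0.32), CAST/EiJ (-1.95 ± 0.29), rd7 (-1.84 ± 0.29) and NOD.NON-H2-nb1 (-1.47 ± 0.29, log2 ± SE). In C57BL6/J the fall was -0.93 ± 0.29, with an adjusted p of 0.0105 by limma, and therefore not called. Whether the falls differed between strains did not pass the test for Fzd7 in any of the 4 comparisons of the age difference with C57BL6/J at an adjusted p of 0.05.

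Fzd4, the Norrin receptor of retinal vessels, was called higher at P30.5 in C57BL6/J alone among the 5 strains. Its C57BL6/J arrays had 8.12, 7.47 and 7.65 at P30.5 and 6.71, 6.60 and 6.40 at E18.5, a difference of 1.17 ± 0.25 (log2 ± SE, adjusted p = 0.000431 by limma). Over all strains Fzd4 ran from 7.43 to 8.55 on the 15 P30.5 arrays and from 6.40 to 8.64 on the 14 E18.5 arrays. In AKR/J, CAST/EiJ and rd7 the age difference was -0.03, -0.01 and -0.21, and in NOD.NON-H2-nb1 it was 0.59 (adjusted p of 0.0624 or higher in these 4 strains). With the muscle and mesenchyme level as a covariate the C57BL6/J difference was 0.81 (adjusted p = 0.0105), no longer called. That covariate was centred within each age, so it did not bring the ages to the same tissue level. The C57BL6/J arrays themselves had levels of 6.14 to 7.01 at E18.5 and 6.01 to 6.78 at P30.5. The lower value with the covariate is therefore not read as a part of that tissue in C57BL6/J.

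**Figure D2:**
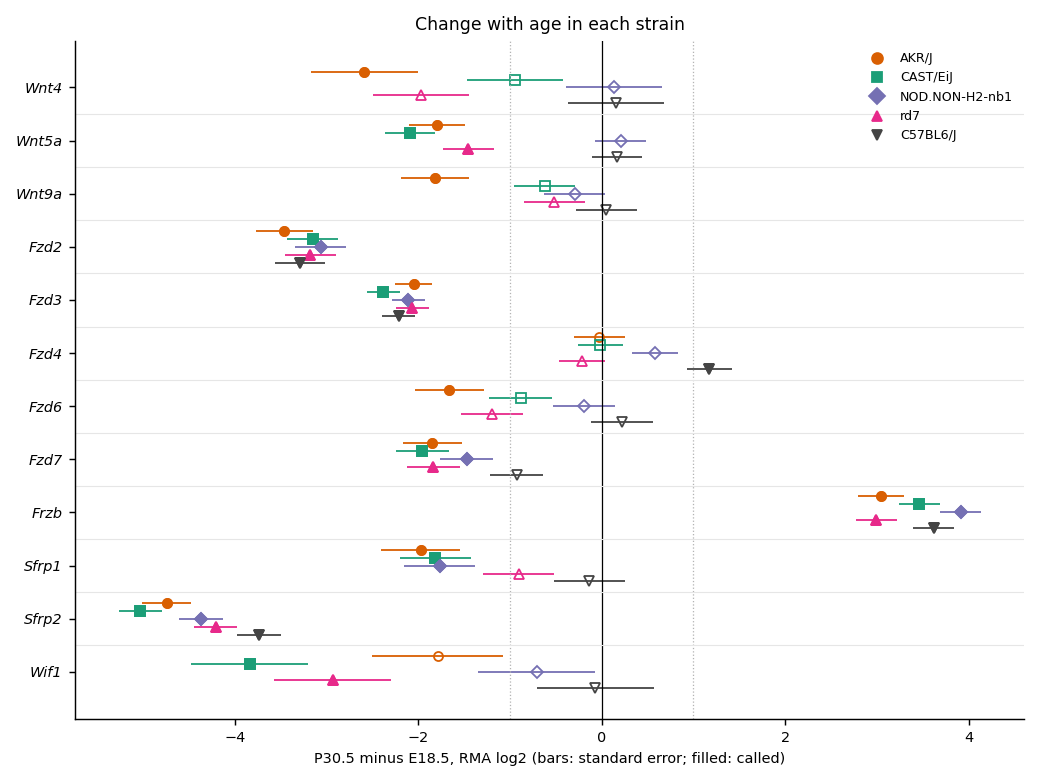
P30.5 minus E18.5 (RMA log2 difference, horizontal axis) of the 12 members called in at least 1 comparison, for each strain, with bars of 1 standard error and filled symbols for calls (adjusted p under 0.001 and 2-fold). Fzd2, Fzd3 and Sfrp2 lie left of -1 and Frzb right of 1 in all 5 strains, while the symbols of Wnt4, Wnt5a, Wnt9a, Fzd6, Sfrp1 and Wif1 spread from strain to strain.

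Of the co-receptors, Lrp6 had RMA levels of 7.53 to 8.67 at P30.5 and 8.33 to 9.31 at E18.5, and its age differences of -0.94 to -0.44 reached an adjusted p under 0.05 in 4 strains but never 2-fold. Members with small age differences were Sfrp4 (-0.24 to 0.26 over strains), Wnt11 (-0.27 to 0.07), Wnt10a (-0.20 to 0.40), Fzd9 (-0.33 to 0.28) and Fzd8 (-0.49 to -0.29), none of them called in any strain from RMA values. Fzd9 was called higher from MAS5 signals in NOD.NON-H2-nb1 (8.15% of all genes were), with signals of 75.9, 111 and 138 at P30.5 and 30.1, 21.6 and 7.58 at E18.5, all of them dim. Fzd10 ran from -0.04 to 0.52 and Sfrp5 from 0.06 to 0.62, and rises passed an adjusted p of 0.05 for Sfrp5 in AKR/J and rd7 and for Fzd10 in rd7. Wnt6 ran from -0.60 to 0.37 (all log2). Fzd1 (-1.51 to -0.31) and Dkk1 (-1.01 to -0.18) passed an adjusted p of 0.05 in AKR/J, CAST/EiJ and rd7, and Wnt5b (-1.28 to -0.04) in CAST/EiJ and rd7, all without a call. Dkk1 blocks Wnt signalling at Lrp5 and Lrp6, and its MAS5 signal was above the array median on 2 of the 14 E18.5 arrays and on 0 of the 15 P30.5 arrays.

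Among the 17 members measured by MAS5 signals alone, Fzd5 and Dkk2 were called in an age comparison (limma on log2(MAS5 signal + 16), adjusted over all MAS5 probe sets). Fzd5, a Frizzled of the early eye field and of retinal progenitors, had signals of 2853, 2976 and 3160 at P30.5 in C57BL6/J and 9969, 8207 and 8247 at E18.5. NOD.NON-H2-nb1 had 2658, 2315 and 2837 at P30.5 and 7530, 8125 and 8048 at E18.5, and rd7 had 2750, 2280 and 3264 at P30.5 and 8399, 6911 and 4884 at E18.5. These 3 strains were called, at -1.55 ± 0.20, -1.60 ± 0.20 and -1.26 ± 0.20 in C57BL6/J, NOD.NON-H2-nb1 and rd7 (log2 ± SE), where 7.51, 7.21 and 7.10% of all genes were called lower. CAST/EiJ had 2714, 3432 and 4031 at P30.5 and 5579, 7788 and 6653 at E18.5, a difference of -0.98 ± 0.20 (adjusted p = 0.000642) that stayed just under 2-fold, and no member of the 17 was called in CAST/EiJ (7.55% of all genes were called lower). AKR/J had 3990, 5406 and 5263 at P30.5 and 6212 and 6383 at E18.5, -0.38 ± 0.23 (adjusted p = 0.26). Against C57BL6/J, AKR/J differed by 0.69 at P30.5 (adjusted p = 0.071) and by -0.48 at E18.5 (0.258).

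Dkk3, a divergent Dickkopf found in glia and neurons that does not act on Lrp6 like the others, had a strong signal at both ages, 6365 to 10629 (median 7659) over P30.5 arrays and 5783 to 10838 (median 8564) over E18.5 arrays. Its age difference ran from -0.32 to 0.31 over the strains and did not pass an adjusted p of 0.05 in any of them. Wnt7b, known in the eye as a macrophage signal for the loss of the embryonic vessels, varied widely within groups, with 33.9 to 739 at P30.5 and 147 to 1285 at E18.5, and no age comparison passed (adjusted p of 0.0812 or higher). Another 12 of the 42 members never rose above their array's median signal on any of the 29 arrays: Dkk4, Dkkl1, Lrp5, Wnt1, Wnt10b, Wnt16, Wnt2b, Wnt3, Wnt3a, Wnt8a, Wnt8b and Wnt9b. The highest single signals were 35.8 for Dkk4, 42.3 for Lrp5, 66.5 for Wnt2b and 97.1 for Wnt10b, where array medians were 91.9 to 135.3. A dim probe set says little about the transcript. Wnt8b alone of these 12 had RMA values, with age differences of -0.17 to 0.36 (log2) and no call, and nothing is read from them. In contrast, 10 members were above the median on all 29 arrays (Dkk3, Fzd1, Fzd3, Fzd4, Fzd5, Fzd6, Fzd7, Lrp6, Sfrp1 and Sfrp4).

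**Figure D3:**
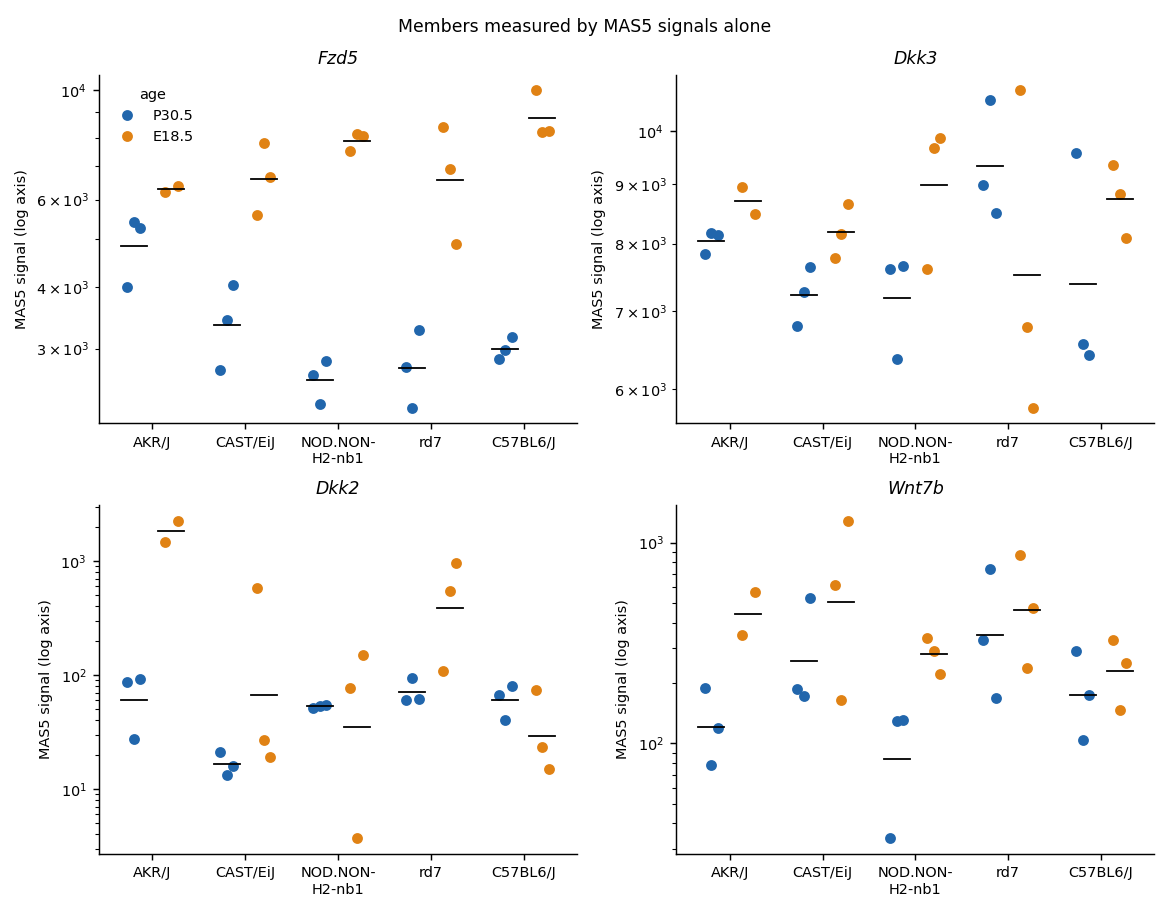
MAS5 signal (log axis) of Fzd5, Dkk3, Dkk2 and Wnt7b on each array, by strain, with P30.5 (blue) left of E18.5 (orange) and a line at the geometric mean of each group. Fzd5 is lower at P30.5 on every array in each of the 5 strains, and Dkk2 reaches 1468 and 2265 on the AKR/J arrays at E18.5.

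At E18.5 every called difference from C57BL6/J ran upward. AKR/J had 5 of 25 members called higher (Wnt5a, Wnt9a, Fzd4, Fzd6 and Sfrp1), where 3.69% of all genes were. CAST/EiJ also had 5 (Wnt5a, Fzd4, Sfrp1, Sfrp2 and Wif1, with 3.17% of all genes), rd7 had 1 (Wnt5a, 0.397%) and NOD.NON-H2-nb1 had 1 (Sfrp1, 0.364%). Of the 25 members none was called lower by limma in any of the 4 strains (1.24, 2.79, 0.0405 and 0.688% of all genes were, in AKR/J, CAST/EiJ, rd7 and NOD.NON-H2-nb1), none was lower at an unadjusted p under 0.05 (13.7, 12.6, 5.60 and 6.16% of all genes), and none of the 42 was called lower from MAS5 signals. From MAS5 signals 0.566, 2.48, 0 and 0.341% of all genes were called lower in AKR/J, CAST/EiJ, rd7 and NOD.NON-H2-nb1. Among the 17 measured by MAS5 alone, Fzd5 was lower in AKR/J at an unadjusted p under 0.05 (8.50% of all genes). Leaving out 1 array at a time moved the counts of higher members to 0 to 5 in AKR/J, 0 to 6 in CAST/EiJ, 0 to 4 in rd7 and 0 to 1 in NOD.NON-H2-nb1. Without 1 of its arrays AKR/J has a single one at E18.5, which is assumed to vary like the other groups. With the array date as a block the calls numbered 5 for AKR/J, 3 for CAST/EiJ, 0 for rd7 and 0 for NOD.NON-H2-nb1. The median difference over the members was 0.82 in AKR/J, 0.65 in CAST/EiJ, 0.63 in rd7 and 0.22 in NOD.NON-H2-nb1 (log2), beside -0.04, 0.11, -0.02 and 0.02 over all genes. These 4 comparisons share the same 3 C57BL6/J arrays, so a low C57BL6/J level raises all of them together.

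The surrounding-tissue markers moved with these differences. Against C57BL6/J at E18.5, all 9 muscle and all 17 measured mesenchyme markers passed an adjusted p of 0.05 in AKR/J, 2 and 7 did in CAST/EiJ, 2 and 7 in rd7, and 0 and 1 in NOD.NON-H2-nb1, all higher. Of the 12 pigment epithelium and melanocyte markers 10, 10, 9 and 1 were higher in the same order of strains, and of the 7 surface epithelium markers 5, 1, 1 and 0. Of 7 endothelium markers 4 were higher in AKR/J and 1 in CAST/EiJ, where 1 was also lower. Of 6 lens markers 2 were higher in CAST/EiJ, with none passing in AKR/J, rd7 or NOD.NON-H2-nb1. The median lens difference was nevertheless 4.40 in AKR/J, 4.81 in CAST/EiJ, 5.37 in rd7 and 0.81 in NOD.NON-H2-nb1 (log2). The part of these tissues in the members' differences was not tested beyond the values given next. These are the differences with the combined muscle and mesenchyme level of each array as a covariate, and those among arrays with a low level. A low level means 9 or less, which does not make the tissue equal. CAST/EiJ arrays 2 and 3, at 7.56 and 8.49, were kept and lay above the 6.14 to 7.01 of C57BL6/J. With the covariate, no member was called in any strain at E18.5, although several kept an adjusted p under 0.05. The share of all genes called with it was not computed. The level itself differed by strain, so the covariate also widened the standard errors, and a lost call need not mean a smaller difference. In AKR/J, Tle4 had 1.50 ± 0.23 without it and 1.47 ± 0.36 with it, and Wls 4.65 ± 0.70 and 2.25 ± 0.83 (log2 ± SE, both genes described below).

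Wnt5a, a ligand that mostly works without beta-catenin, was called in 3 of the 4 strains. Its E18.5 arrays had 7.62 and 7.43 in AKR/J, 7.51, 6.95 and 7.14 in CAST/EiJ, 6.54, 7.63 and 8.09 in rd7, 5.55, 5.56 and 5.59 in NOD.NON-H2-nb1, and 5.52, 5.58 and 5.71 in C57BL6/J. NOD.NON-H2-nb1 lay within the C57BL6/J range and the other 3 strains above it on every array, including CAST/EiJ arrays 2 and 3, whose muscle and mesenchyme levels were 7.56 and 8.49. The difference was 1.92 ± 0.31 in AKR/J (adjusted p = 9.62e-05), 1.60 ± 0.27 in CAST/EiJ (9.17e-05) and 1.81 ± 0.27 in rd7 (0.000469), and -0.04 ± 0.27 in NOD.NON-H2-nb1. With the covariate it was 0.94, 1.11 and 1.15 in AKR/J, CAST/EiJ and rd7 (adjusted p of 0.278, 0.00356 and 0.0852). Among arrays with a low level it was 1.44 in CAST/EiJ (adjusted p = 0.000113, 2 arrays) and 0.94 in rd7 (0.0921), where a single rd7 array was left and was assumed to vary like the other groups. The rd7 call was lost with the array date as a block (1.83, adjusted p = 0.00318). From MAS5 signals Wnt5a passed an adjusted p of 0.05 in AKR/J and rd7 but not in CAST/EiJ, and was called in none of them. Single dates gave 1.85 to 2.10 in AKR/J, 1.56 to 1.99 in CAST/EiJ and 1.02 to 2.50 in rd7, and the other probe sets of Wnt5a gave 0.32 and 0.06 in CAST/EiJ.

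Wnt4 and Wnt9a, ligands of epithelial and skeletal development, were high on a few arrays. Wnt4 had 8.52 and 8.41 in AKR/J, 8.61, 6.26 and 6.35 in CAST/EiJ, 6.04, 8.31 and 9.06 in rd7, 6.09, 5.80 and 5.89 in NOD.NON-H2-nb1, and 5.62, 5.48 and 5.62 in C57BL6/J. The 5 arrays above 8 were among the 6 with a muscle and mesenchyme level above 9. The exception was NOD.NON-H2-nb1 array 1, where muscle markers averaged 11.34. Its surface epithelium level was 6.05, against 10.16 to 11.51 on the other 5. Its mesenchyme level was 9.36 (10.41 to 11.46 on the other 5) and its pigment epithelium level 8.63 (9.98 to 10.62). The part of each tissue in the Wnt4 level was not tested. Wnt4 was higher in AKR/J by 2.89 ± 0.58 (adjusted p = 0.00102, just short of a call), in CAST/EiJ by 1.50 ± 0.52 (0.0348) and in rd7 by 2.23 ± 0.52 (0.0118). Single dates ranged from 0.87 to 2.98 in CAST/EiJ and from 0.42 to 3.58 in rd7, so both differences rest on the arrays named.

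Wnt9a had 7.23 and 7.34 in AKR/J, 7.01, 5.24 and 5.46 in CAST/EiJ, 5.49, 5.68 and 6.90 in rd7, 5.81, 5.48 and 5.10 in NOD.NON-H2-nb1, and 5.18, 4.93 and 5.20 in C57BL6/J. The AKR/J arrays, CAST/EiJ array 1 and rd7 array 3 stood apart. The AKR/J difference of 2.18 ± 0.37 (adjusted p = 0.000204) was 0.78 (adjusted p = 0.495) with the covariate.

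Fzd6, which acts with Fzd3 in planar polarity and is strong in epithelia, showed a like set of arrays. It had 9.80 and 10.02 in AKR/J, 9.16, 7.98 and 8.47 in CAST/EiJ, 8.43, 9.84 and 10.27 in rd7, 8.28, 8.34 and 8.42 in NOD.NON-H2-nb1, and 7.91, 7.98 and 7.58 in C57BL6/J. It was called in AKR/J (2.08 ± 0.38, adjusted p = 0.000378) and reached 1.69 ± 0.34 (adjusted p = 0.00439) in rd7. The covariate left 0.66 (adjusted p = 0.612) in AKR/J, and the array date as a block gave 1.96 (0.00233), not called. Fzd4 had 8.15 and 8.64 in AKR/J, 8.23, 7.43 and 7.63 in CAST/EiJ, 7.49, 7.65 and 8.29 in rd7, 7.24, 6.71 and 7.62 in NOD.NON-H2-nb1, and 6.71, 6.60 and 6.40 in C57BL6/J. All AKR/J, CAST/EiJ and rd7 arrays of Fzd4 exceeded all C57BL6/J arrays. The endothelium marker level was 8.42 and 9.27 on the AKR/J arrays and 7.22, 6.80 and 6.96 on the C57BL6/J arrays, and its part in the Fzd4 difference was not tested. Fzd4 was higher by 1.82 ± 0.28 in AKR/J (adjusted p = 6.32e-05), 1.19 ± 0.25 in CAST/EiJ (0.000804) and 1.24 ± 0.25 in rd7 (0.00457), and by 1.001 (adjusted p = 0.197) in AKR/J and 0.79 (0.0274) in CAST/EiJ with the covariate. Fzd1 and Fzd7 passed an adjusted p of 0.05 in AKR/J without a call (1.52 and 1.36), whereas Fzd2 and Fzd3 ran from -0.15 to 0.79 over the 4 strains and none passed. A dimmer Fzd2 probe set differed here, at -1.82 (adjusted p = 2.34e-08) in CAST/EiJ, where the other probe sets gave 0.21 and 0.36.

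**Figure D4:**
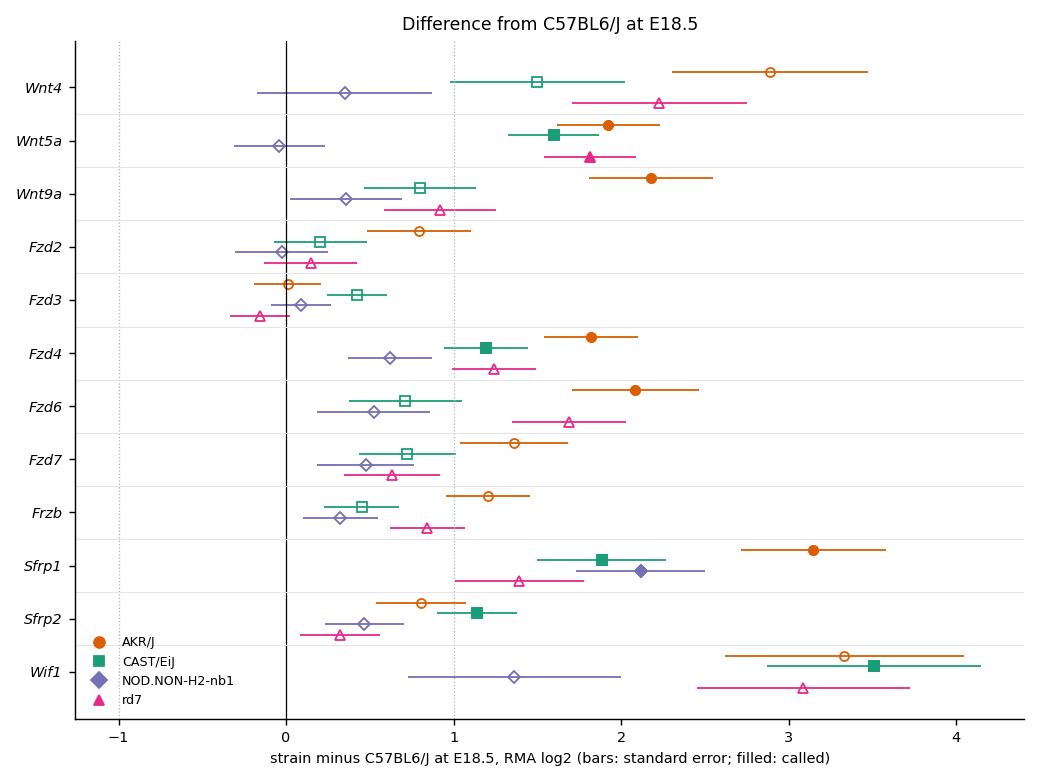
Difference from C57BL6/J at E18.5 (RMA log2, horizontal axis) of the 12 members called in at least 1 comparison, for the 4 other mouse groups, with bars of 1 standard error and filled symbols for calls. Nearly all symbols lie right of 0, Sfrp1 and Wif1 reach above 3 in AKR/J, and Fzd2 and Fzd3 lie between -0.15 and 0.79.

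Sfrp1, a secreted antagonist of the optic cup and ciliary margin, was called in 3 of the 4 strains at E18.5. It had 9.09 and 9.57 in AKR/J, 8.02, 7.59 and 8.59 in CAST/EiJ, 7.48, 7.38 and 7.88 in rd7, 7.69, 8.31 and 8.91 in NOD.NON-H2-nb1, and 6.16, 6.36 and 6.03 in C57BL6/J. On this RMA probe set every array of the 4 strains lay above the 3 C57BL6/J arrays. NOD.NON-H2-nb1 array 2, with a muscle and mesenchyme level of 6.35, had an Sfrp1 level of 8.31. The difference was 3.15 ± 0.43 in AKR/J (adjusted p = 1.7e-05), 1.88 ± 0.39 in CAST/EiJ (0.000635), 1.39 ± 0.39 in rd7 (0.0294) and 2.12 ± 0.39 in NOD.NON-H2-nb1 (0.000748). With the covariate it was 2.08 in NOD.NON-H2-nb1 (adjusted p = 0.00242), 3.03 in AKR/J (0.0104) and 1.83 in CAST/EiJ (0.00541), none of them called. The covariate holds no pigment epithelium markers, and the part of that tissue was not tested. Among arrays with a low level it was 2.42 in NOD.NON-H2-nb1 (adjusted p = 0.00134) and 1.91 in CAST/EiJ (0.00305). With the array date as a block it was 1.85 in CAST/EiJ (adjusted p = 0.00271) and 2.08 in NOD.NON-H2-nb1 (0.00414), neither called. Single dates gave 2.93 to 3.21 in AKR/J, 1.86 to 2.23 in CAST/EiJ, 1.32 to 1.51 in rd7 and 1.53 to 2.55 in NOD.NON-H2-nb1. The probe sets of Sfrp1 gave 1.88, 1.91 and 1.92 in CAST/EiJ but 2.12, 0.67 and -0.11 in NOD.NON-H2-nb1, so that the NOD.NON-H2-nb1 difference depends on the probe set read. The brightest MAS5 probe set of Sfrp1 has no RMA values. From its MAS5 signals Sfrp1 did not pass an adjusted p of 0.05 at E18.5 in any of the 4 strains. For Sfrp1 in CAST/EiJ at E18.5, the paper's qRT-PCR gave a higher level, the same sign as its arrays.

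Wif1, a ligand-binding inhibitor, had 7.18 and 7.17 in AKR/J, 7.89, 6.89 and 7.29 in CAST/EiJ, 4.95, 7.44 and 8.41 in rd7, 4.31, 4.38 and 6.94 in NOD.NON-H2-nb1, and 3.73, 4.10 and 3.70 in C57BL6/J. Its high arrays included CAST/EiJ arrays 2 and 3 and NOD.NON-H2-nb1 array 3. Their muscle and mesenchyme levels of 7.56, 8.49 and 7.89 were under 9 but above the 6.14 to 7.01 of the C57BL6/J arrays. Their pigment epithelium levels were 10.29, 10.27 and 10.09. On rd7 array 1, where the 2 levels were 7.50 and 10.14, Wif1 was only 4.95. It was higher by 3.51 ± 0.64 in CAST/EiJ (adjusted p = 0.000176), 3.33 ± 0.71 in AKR/J (0.00175) and 3.09 ± 0.64 in rd7 (0.00549), and the CAST/EiJ difference was 3.25 (adjusted p = 0.000116) among arrays with a low level. Sfrp2 was higher in CAST/EiJ by 1.14 ± 0.24 (adjusted p = 0.000776), with the array values given above, by 1.08 (adjusted p = 0.00761) with the covariate and by 1.20 (0.00228) with the array date as a block. Single dates gave 1.36 to 1.71 for Sfrp2 in CAST/EiJ.

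Of the members measured by MAS5 alone, Dkk2, a Dickkopf of the cornea and eyelid, was called at E18.5 in AKR/J (1.03% of all genes were called higher). Its signals were 1468 and 2265 in AKR/J, 584, 27.0 and 19.1 in CAST/EiJ, 108, 549 and 959 in rd7, 77.0, 3.72 and 149 in NOD.NON-H2-nb1, and 73.3, 23.2 and 14.9 in C57BL6/J. Signals of 549 or more were found on the 5 arrays where Wnt4 was above 8, and the dim values of the others have no reliable order. The AKR/J difference was 5.27 ± 0.93 on the log2(signal + 16) scale (adjusted p = 0.000769), and 1.22 (adjusted p = 0.806) with the covariate. Dkk2 also fell with age in AKR/J, by 4.55 ± 0.93 (adjusted p = 0.000677, where 6.29% of all genes were called lower), with P30.5 signals of 86.4, 27.4 and 93.1.

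**Figure D5:**
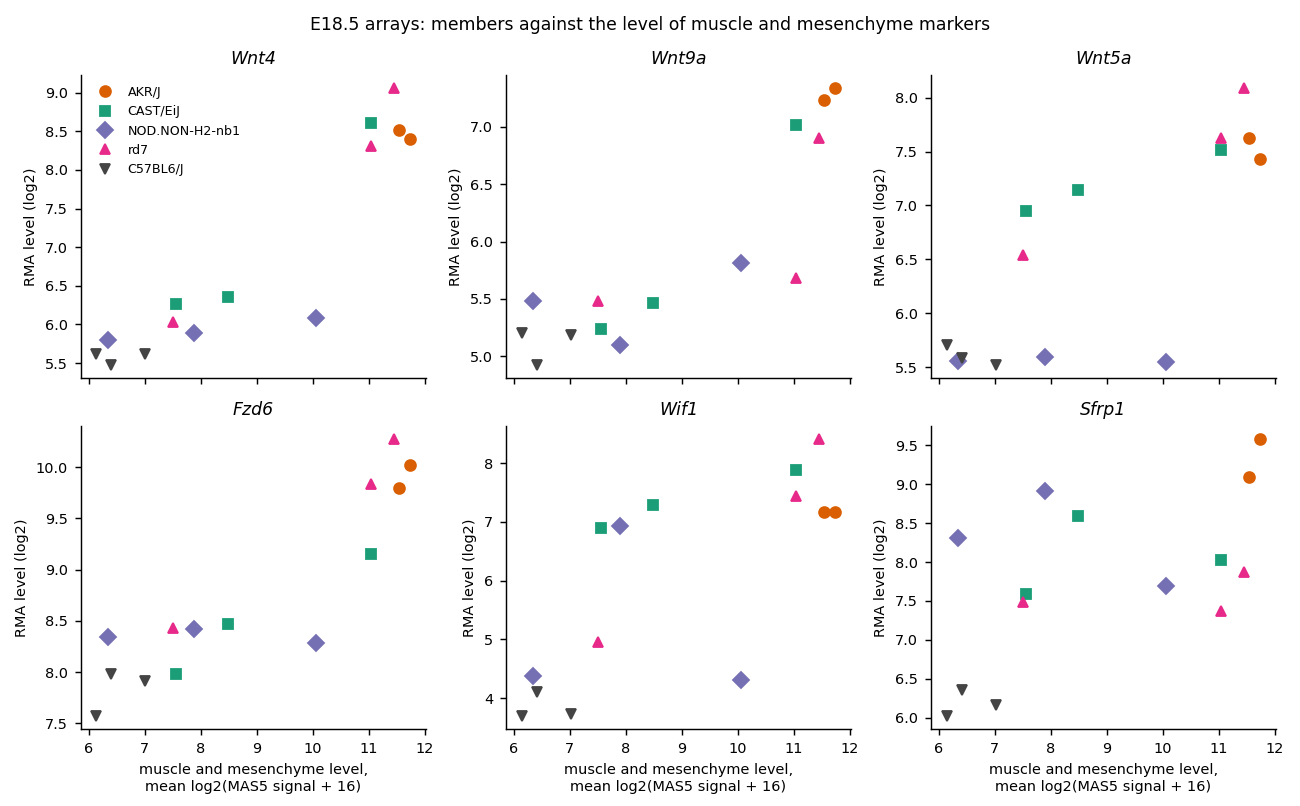
RMA level (log2) of Wnt4, Wnt9a, Wnt5a, Fzd6, Wif1 and Sfrp1 on each E18.5 array (vertical axis) against the muscle and mesenchyme level of that array (horizontal axis, mean of the markers as log2(MAS5 signal + 16)), with 1 symbol per array. Wnt4 is above 8 only on 5 of the 6 arrays right of 9, while Sfrp1 is above 7 on every array but the 3 of C57BL6/J.

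At P30.5 no member was called against C57BL6/J in any strain. Over all genes 0.559, 2.38, 0.316 and 0.534% were called higher in AKR/J, CAST/EiJ, rd7 and NOD.NON-H2-nb1, and 0.826, 2.88, 0.105 and 0.615% lower. At an unadjusted p under 0.05 by limma, 8 of the 25 members were higher in AKR/J, 2 in CAST/EiJ, 1 in rd7 and 2 in NOD.NON-H2-nb1 (10.7, 22.9, 3.58 and 9.60% of all genes), and 1 was lower, in CAST/EiJ (10.96%). Of the 17 measured by MAS5 alone, Fzd5 and Wnt9b were higher and Dkk4 was lower in AKR/J at that limit (6.86 and 5.11% of all genes from MAS5 signals). Wnt2 was higher in rd7. The signals of Wnt9b, Dkk4 and Wnt2 were above the array median on 0 of the 15 P30.5 arrays, and nothing is read from them. MAS5 signals gave no call among the 25 members either. In AKR/J, 3 members passed an adjusted p of 0.05, Sfrp1, Fzd8 and Sfrp5, where 3.42% of all genes were higher at that limit. Sfrp1 had 7.08, 7.66 and 7.34 in AKR/J and 6.37, 5.76 and 6.01 in C57BL6/J at P30.5 (1.31 ± 0.39, adjusted p = 0.0414), and the groups did not overlap. That value depends on the probe set and the signal. The same probe set gave 1.58 from MAS5 signals (adjusted p = 0.0787), the other RMA probe sets gave 0.26 and -0.11, and the brightest MAS5 probe set had overlapping signals of 425, 483 and 506 in AKR/J and 1463, 260 and 453 in C57BL6/J. Sfrp5, a close relative of Sfrp1 known from pigment epithelium, had 7.05, 6.81 and 6.75 in AKR/J and 6.63, 6.13 and 6.03 in C57BL6/J. Fzd8 passed in AKR/J and in CAST/EiJ (15.3% of all genes were higher at that limit in CAST/EiJ), but its C57BL6/J arrays had 6.79, 5.38 and 5.46 and overlapped both strains.

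Whether the difference from C57BL6/J changed between the ages was tested for each strain. Only Wnt5a in CAST/EiJ was called, and it fell: the CAST/EiJ difference was lower at P30.5 than at E18.5 by 2.25 ± 0.39 (log2 ± SE, adjusted p = 0.000746 by limma), where 0.551% of all genes were called lower. Its CAST/EiJ arrays had 4.89, 5.05 and 5.39 at P30.5, beside 5.53, 5.64 and 6.13 in C57BL6/J. The value was -1.78 (adjusted p = 0.00324) with the covariate and -2.10 (0.000357) among arrays with a low level. The call was lost with the array date as a block (-2.27, adjusted p = 0.00151). AKR/J, rd7 and NOD.NON-H2-nb1 had no call (0.138, 0.0486 and 0.0810% of all genes were called lower), though 11, 8 and 2 members were lower at an unadjusted p under 0.05 (10.3, 9.23 and 3.60% of all genes). At an adjusted p of 0.05 the change was lower for 4 members of AKR/J, 4 of CAST/EiJ and 2 of rd7 (3.94, 3.43 and 1.07% of all genes). MAS5 signals gave no call among the 25 members in these 3 strains.

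The rest of the pathway was read from lists of 63 genes, 49 of them with RMA values. With age, 6 were called higher and 10 lower in AKR/J (10.2 and 10.3% of all genes were), 4 and 8 in CAST/EiJ (8.47 and 10.03%), 3 and 11 in rd7 (8.52 and 11.7%), 4 and 11 in NOD.NON-H2-nb1 (10.2 and 10.2%), and 4 and 9 in C57BL6/J (10.01 and 10.96%). Lgr5, an R-spondin receptor that raises Wnt responses, was higher at P30.5 in all 5 strains, by 2.18, 1.97, 2.85, 2.08 and 2.72 in AKR/J, CAST/EiJ, rd7, NOD.NON-H2-nb1 and C57BL6/J (log2). Ror1, a receptor for Wnt5a, was lower in all 5, with differences of -2.76, -2.05, -2.58, -2.51 and -2.79 in the same order, and so was the nuclear factor Tcf7l2, with differences of -1.96 to -1.36. The feedback inhibitor Axin2, a common reporter of beta-catenin signalling, changed by -0.12 to 0.42 and was not called in any strain.

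At E18.5, AKR/J had 6 of the 49 called higher than in C57BL6/J, CAST/EiJ 6, rd7 2 and NOD.NON-H2-nb1 2 (3.69, 3.17, 0.397 and 0.364% of all genes). Wls, which carries Wnt ligands to the cell surface, had 9.11 and 9.32 in AKR/J, 8.36, 6.92 and 7.62 in CAST/EiJ, 6.90, 8.63 and 9.80 in rd7, 6.39, 5.81 and 6.82 in NOD.NON-H2-nb1, and 4.67, 4.83 and 4.21 in C57BL6/J. It was called in AKR/J (4.65 ± 0.70), CAST/EiJ (3.06 ± 0.62) and rd7 (3.88 ± 0.62). Its 5 highest arrays were among the 6 with a muscle and mesenchyme level above 9, and with the covariate the differences were 2.25, 1.89 and 2.25 (adjusted p of 0.209, 0.0219 and 0.136). Sostdc1, a secreted inhibitor that binds Lrp6, was called in the same 3 strains (2.91, 3.35 and 2.85), and with the covariate had 2.03, 2.92 and 2.25 (adjusted p of 0.196, 0.000176 and 0.0772). Celsr1, a planar polarity cadherin, was called in NOD.NON-H2-nb1, AKR/J and CAST/EiJ (1.75, 2.06 and 1.56), and with the covariate had 1.52, 1.29 and 1.19 (adjusted p of 2.06e-05, 0.0323 and 0.000438).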

How the data were processed

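Retinal RNA of 29 arrays was analysed from 2 deposited tables. The authors deposited RMA values, log2 levels that are background-corrected and normalised across arrays, for 25444 probe sets, and MAS5 signals, a linear intensity of each probe set, for 45101. How the RMA probe sets were selected is not given in the sources used here. Probe sets were named from the platform annotation (of the RMA probe sets 20506 had 1 symbol, 399 several and 4539 none here), and only single-symbol probe sets were used. Of several probe sets of a gene, the 1 brightest on average across the 29 arrays was read; levels of different probe sets were not compared.

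Groups came from the strain and age in the labels. In limma 3.58.1 (R 4.3.3; tables in Python 3.11.15) 1 mean per group was fitted to all 29 arrays, with contrasts for age in each strain, every other strain against C57BL6/J at both ages, and the change of that difference with age, 17 in all. P-values were adjusted (Benjamini-Hochberg) over all probe sets, and a call needed an adjusted p under 0.001 and 2-fold. Members without RMA values were tested on log2(MAS5 signal + 16), which understates changes of dim probe sets. The fits were tested on simulated data. Values per array are given for members called in at least 1 comparison; of the other pathway lists at most 4 members each, with the largest changes, could be named. The members and lists were chosen with earlier results of these data known.

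Alternatives were MAS5 signals, a floor of 6 on dim probe sets, the array date as a fixed or random block, only the groups compared, another probe set, each array left out, and the mean muscle and mesenchyme level as a covariate. The covariate was centred within each age, so age contrasts with it compare each age at its own mean level. The low-level arrays alone, 2 further MAS5 fits and the covariate for other pathway genes were chosen after seeing the data. Replicate numbers pair no arrays, since they only name them, so the date was the block; with it, 1 C57BL6/J array at E18.5 that is alone on its date adds nothing to the contrasts. Nothing says that arrays of a group came from separate animals beyond the pools, so p-values measure the spread between pools. The number of arrays, 2 or 3 in a group, limits the precision.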

Additional observations from a re-analysis of the deposited data

Results flagged for a closer look

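A direct test of whether the difference from C57BL6/J changed between E18.5 and P30.5 (limma, adjusted p under 0.05) picked out 11 results. In all of them the strain minus C57BL6/J was larger at E18.5 than at P30.5. In some the strain lay below C57BL6/J at P30.5, as for Wnt5a in CAST/EiJ (mean 5.11 against 5.77). No group had enough arrays for a test of single outlying arrays.

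In AKR/J the change was -1.89 for Fzd6, -2.74 for Wnt4, -1.96 for Wnt5a and -1.87 for Wnt9a (RMA log2), and -5.24 for Dkk2 on the log2(MAS5 signal + 16) scale. Over all genes 3.94% had a lower difference at that limit in AKR/J. Both AKR/J arrays at E18.5 had muscle and mesenchyme levels of 11.53 and 11.74, and the part of that tissue was not tested beyond the covariate.

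In CAST/EiJ the change was -1.19 for Fzd4, -1.30 for Sfrp2, -3.76 for Wif1 and -2.25 for Wnt5a (3.43% of all genes). The called one, Wnt5a, was -2.10 among arrays with a low muscle and mesenchyme level. In rd7 it was -1.39 for Fzd4 and -1.62 for Wnt5a (1.07% of all genes), where 2 of the 3 E18.5 arrays had levels of 11.04 and 11.45.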

How the results depend on the processing

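Sfrp2, Fzd2, Fzd3 and Frzb kept their age calls in all 5 strains when any single array was left out. With MAS5 signals, 5 members changed with age in AKR/J (10 with RMA values), where 14.3% of all genes were called (20.5% with RMA values). At E18.5 the calls against C57BL6/J numbered 0 in AKR/J, 1 in CAST/EiJ, 0 in rd7 and 0 in NOD.NON-H2-nb1 (5, 5, 1 and 1 with RMA values). Fewer genes were called higher there from MAS5 signals in general. The shares were 1.03, 1.39, 0.0550 and 0.137% of all genes, against 3.69, 3.17, 0.397 and 0.364% with RMA values. The change of the CAST/EiJ difference with age had 0 calls, against 1. With the muscle and mesenchyme covariate the counts were 4 for age in AKR/J, 0 in all 4 strains at E18.5, and 0 for the CAST/EiJ change. Among arrays with a low level, an alternative chosen after seeing the data, age in rd7 had 4 calls (7 with all arrays) and E18.5 had 2 in CAST/EiJ, 0 in rd7 and 0 in NOD.NON-H2-nb1; AKR/J kept no E18.5 array there and could not be fitted. When the array date served as the replicate block, E18.5 had 3 calls in CAST/EiJ, 0 in rd7 and 0 in NOD.NON-H2-nb1, and the CAST/EiJ change 0; the block moved no other count by over 1.5 times. As a random block the date gave 8 calls for AKR/J at E18.5. Only the groups compared gave 9, 2, 0 and 0 calls at E18.5 in the same strain order, and 4 and 2 for the AKR/J and CAST/EiJ changes. The probe set with the largest variance gave 3 AKR/J calls at E18.5, 0 NOD.NON-H2-nb1 calls, 1 in CAST/EiJ at P30.5 and 3 for the CAST/EiJ change. The 5 calls on members measured by MAS5 alone became 3 with log2(signal + 1), 0 with only the groups compared and 3 with the covariate. One Sfrp1 probe set reversed at E18.5 (-0.11 in NOD.NON-H2-nb1, adjusted p = 0.982). Apart from MAS5 signals, shares of all genes were not computed for these alternatives, so their counts alone are no result about the members. The causes were not tested.

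Leaving out 1 array at a time gave 4 to 6 age calls in AKR/J, 7 to 9 in CAST/EiJ, 5 to 9 in rd7, 4 to 6 in NOD.NON-H2-nb1 and 4 to 5 in C57BL6/J. At E18.5 it gave 0 to 5 in AKR/J, 0 to 6 in CAST/EiJ, 0 to 4 in rd7 and 0 to 1 in NOD.NON-H2-nb1, and at P30.5 0 to 1 in AKR/J, 0 to 1 in CAST/EiJ, 0 in rd7 and 0 in NOD.NON-H2-nb1. The change with age had 0 calls in NOD.NON-H2-nb1 and AKR/J, 0 to 1 in CAST/EiJ and 0 to 1 in rd7, and the MAS5 members 3 to 6. Any AKR/J array lowered the AKR/J age count, to 6 without a P30.5 array and to 4 and 5 without E18.5 array 1 and 2. At E18.5 AKR/J had 3 calls without C57BL6/J array 2, 2 without AKR/J array 1 and 0 without AKR/J array 2. The CAST/EiJ count was 1, 2 and 1 without C57BL6/J array 1, 2 and 3, and 0 and 2 without CAST/EiJ array 1 and 3. NOD.NON-H2-nb1 fell to 0 without any C57BL6/J array or its own array 2 or 3, and rd7 to 0 without any C57BL6/J array or its own array 2 or 3 but had 4 without array 1. At P30.5 the single calls in AKR/J and CAST/EiJ came without C57BL6/J array 1. The CAST/EiJ change was lost without any C57BL6/J array, any CAST/EiJ E18.5 array, or CAST/EiJ P30.5 array 1 or 2, and rd7 gained 1 without its E18.5 array 1. The MAS5 members had 3 calls without AKR/J E18.5 array 1 or 2.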

Other observations

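Of the 49 genes of the other pathway lists with RMA values, 4 were called against C57BL6/J in the mature retina, all higher. These were Tle4 in AKR/J and CAST/EiJ, Tle1 and Nkd1 in CAST/EiJ, and Rspo2 in rd7. By strain, AKR/J had 1 call, CAST/EiJ 3, rd7 1 and NOD.NON-H2-nb1 0 (0.559, 2.38, 0.316 and 0.534% of all genes were called higher). Nkd1, a feedback inhibitor that Wnt signalling switches on, was higher at both ages, at P30.5 by 0.90 (AKR/J), 1.24 (CAST/EiJ) and 0.79 (NOD.NON-H2-nb1), and by 1.002, 1.48 and 1.22 at E18.5 (log2, adjusted p of 0.00138 or lower), with -0.09 at P30.5 and 0.07 at E18.5 in rd7. Tle4, a transcriptional co-repressor that works with TCF factors, was higher by 1.19 and 1.68 at P30.5 and by 1.50 and 1.21 at E18.5 in AKR/J and CAST/EiJ. With the muscle and mesenchyme covariate the E18.5 differences were 1.26, 1.12 and 1.54 for Nkd1 in NOD.NON-H2-nb1, AKR/J and CAST/EiJ (adjusted p of 0.019 or lower) and 1.47 and 1.199 for Tle4 in AKR/J and CAST/EiJ (0.0262 and 0.00108). Tle1, a co-repressor of the same family, had 9.23, 9.70 and 9.57 in CAST/EiJ and 8.22, 8.55 and 8.44 in C57BL6/J at P30.5 (1.09 ± 0.19, adjusted p = 9.5e-05 by limma). For both Tle1 and Tle4 in CAST/EiJ at P30.5, the paper's qRT-PCR gave the opposite sign to its arrays, a lower level. The array differences of these genes are therefore not backed by that second method. All these comparisons share the C57BL6/J arrays of their age.

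Rspo2, a secreted protein that raises Wnt responses through Lgr receptors, had 8.49, 8.37 and 8.17 in rd7 and 6.71, 7.00 and 7.06 in C57BL6/J at P30.5 (1.42 ± 0.18, adjusted p = 2.42e-05). It was lower at P30.5 than at E18.5 in the other 4 strains, with differences of -1.48 to -0.92, and differed by -0.03 in rd7. The rd7 difference changed with age by 1.35 ± 0.26 (adjusted p = 0.00625 by limma). Muscle and mesenchyme levels were 6.01 to 7.40 on the P30.5 arrays, with the highest in rd7. That change also uses the E18.5 arrays, with levels of 7.50, 11.04 and 11.45 in rd7 and 6.14 to 7.01 in C57BL6/J. The part of that tissue in Rspo2 was not tested.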
